A study of Rattus norvegicus with 6 samples.

Results

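The genes described here belong to the prostaglandin and leukotriene pathway of the rat lung. A list of 10 symbols was used, namely Ptgs1, Ptgs2, Ptges, Ptgis, Tbxas1, Hpgd, Ptger2, Ptger4, Ptgir and Alox5, and a gene was taken when the transcript table held rows under exactly that name. By this rule 9 of the 10 were found, with 19 transcripts, among 21655 gene names in the table. A gene was tested when at least 3 samples had a value above 0, which held for 19645 gene names, for each of the 9 genes found and for all 19 of their transcripts. Ptges passed with values above 0 in the 3 model samples and in 1 control sample, so its place among the tested genes rested mainly on the group in which it was higher. Ptgis, the prostacyclin synthase gene, had no row under that symbol and is not analysed here under its own name.

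Lung tissue was sampled from 3 control rats and 3 pulmonary fibrosis (PF) model rats. The animals were Sprague–Dawley rats of 7 weeks, the model rats received a single dose of bleomycin at 7 mg/kg into the trachea, the control rats received saline, and all were killed on day 28. Bleomycin is a DNA-damaging drug whose instillation injures the alveoli and leaves scarring, and as a model it follows 1 acute injury. Each rat gave 1 library depleted of ribosomal RNA, so a p value measures the spread between these rats.

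Prostaglandins and leukotrienes are eicosanoids, short-lived lipid signals made from arachidonic acid that phospholipases release from membranes. Cyclooxygenases turn arachidonic acid into prostaglandin H2, from which separate synthases make prostaglandin E2, prostacyclin or thromboxane A2, while 5-lipoxygenase opens the leukotriene branch. In the lung, prostaglandin E2 is known to restrain fibroblasts through its EP2 and EP4 receptors, thromboxane narrows vessels and airways, prostacyclin widens vessels, and leukotrienes recruit leukocytes and contract airway muscle.

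The expression of a gene was the sum of the FPKM (fragments per kilobase of transcript, scaled to the number of fragments in the library) of its transcripts. None of the 9 genes had an adjusted p below 0.05 (limma, Benjamini-Hochberg adjustment over all genes tested), a level reached by 2 genes of the whole table (0.0102%). One member, Ptges, met the looser rule built on the thresholds in the methods of the study, an unadjusted p no larger than 0.05 together with an absolute log2 ratio of the means no smaller than 1, which 298 genes of the table met (1.52%), 130 of them higher in the model (0.662%). An unadjusted p no larger than 0.05 was reached by 1 of the 9 genes against 4.91% of all genes. All model samples lay above all control samples for 3 of the 9 genes, Ptges, Tbxas1 and Ptger2, against 4.82% of all genes, and the opposite held for none of the 9 against 5.87%. The median difference over the 9 genes was 0.039 on the log2(FPKM + 1) scale, beside -0.0072 over all genes tested. In bulk lung, fewer cells of a type and less RNA per cell cannot be told apart.

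**Figure D1:**
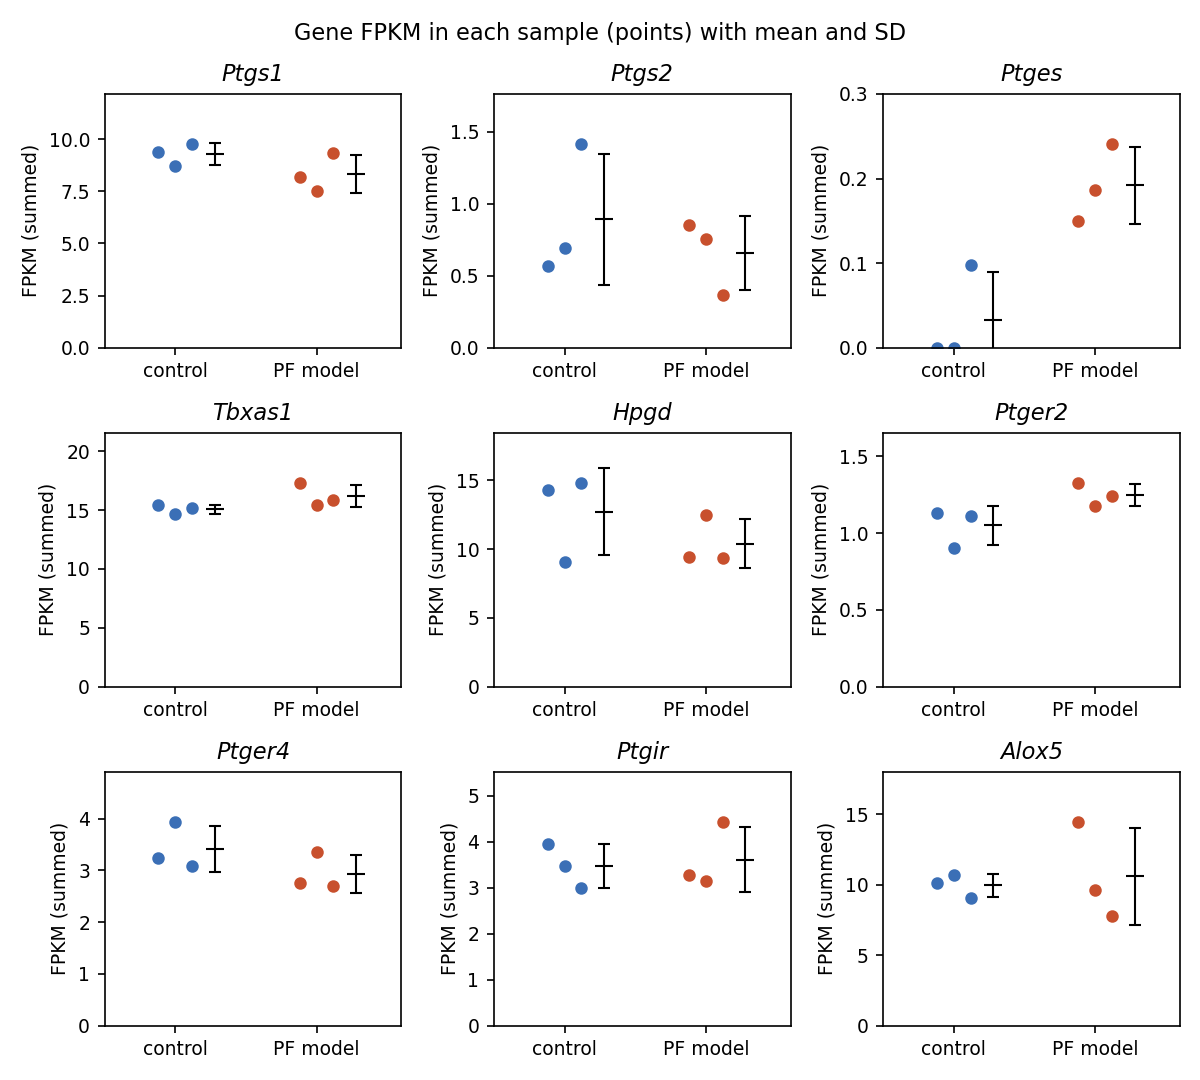
FPKM summed per gene (vertical axis of each panel, starting at 0) in each control (blue) and PF model (red) rat for the 9 genes, with horizontal ticks and bars for the mean and SD of 3 samples; the lower bar of the Ptges controls is cut off at 0. The model points lie above all control points for Ptges, Tbxas1 and Ptger2 and overlap the control points for the other 6 genes.

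The libraries were of similar depth. Reads on the transcripts of the table were estimated from coverage, transcript length and a read length of 150 bases. They came to between 35778631 and 41112682 per control library and between 36699504 and 40877901 per model library. These are fewer than the clean reads that the paper lists for each library. Sftpc, the surfactant protein C gene of type 2 lung epithelium, was at 2410 to 4146 FPKM in the 6 samples. Of 15 lists of cell type markers, 67 of 76 genes were in the table, and none was at 0 in all 6 samples. None had an adjusted p below 0.05 (limma), against 0.0102% of all genes. The rule of p and fold was met by 1 marker, Nppa, against 1.52% of all genes. The summed level of 2 of the 15 lists did not overlap between the groups, and no share over other sums was computed. Among single genes, all model samples lay above all controls for 4.82% and below for 5.87%. The fibroblast markers (5 of 5 genes found) were at 290 to 308 FPKM in control and 314 to 408 in model samples. The mast cell markers (6 of 6 found) were at 29.1 to 32.9 and 34.3 to 39.3. Of the fibroblast markers, the groups were apart for Col3a1 alone, at 174, 178 and 154 FPKM in control and 189, 204 and 233 in model samples. Col1a1 and Col1a2 overlapped with higher model means, and Pdgfra (26.1 and 24.9 FPKM) and Dcn (14.0 and 12.6) overlapped with lower model means. The mast cell sum was mostly Kit, at 25.03 to 34.25 FPKM with the groups apart, a gene that other lung cells also express. The model means of Cpa3, Tpsb2, Ms4a2 and Tpsab1 were lower than the control means, with all model samples below the controls for Tpsab1, and that of Mcpt1l1 was higher. Among the macrophage markers, Cd68 was 1.30 FPKM in control 3 and 1.21 in model 2 but 20.7 to 22.8 in the other 4 samples. Model 3 stood apart in some markers of heart muscle and airway secretory cells. Myh6 was at 5.11 FPKM against 0 to 0.034 in the others, Bpifa1 at 95.8 against 0 to 0.135, and Muc5b at 22.2 against 1.59 to 3.68. The cardiac sum was 25.6 against 5.94 to 10.5. In model 3, Scgb1a1 (6140 FPKM), Scgb3a2 (191) and Nppa (0.150) lay within the range of the other samples. Its airway sum (6450) was below that of control 3 (7911). Model 3 also had the highest fibroblast sum, and the other model samples were at 314 and 343.

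The stretches before the start sites of a few of these genes are shown. The pathway holds a pair of cyclooxygenases with different known modes of use, the first constitutive and the second inducible. Ptges was added for the separation of its level between groups, and Alox5 for separations among its transcripts, as its summed level overlapped. These are described below, and none had an adjusted p below 0.05. The choice was made with these values known, and Tbxas1 and Ptger2, whose groups were also apart, are not printed. The 120 bases before the start of each gene are given from RefSeq on the build GRCr8. The build of the expression table is not given in the sources used here, so these coordinates are not comparable with those of the transcripts. Capitals mark matches to the motifs GGGCGG (known as GC box), CACGTG (known as E-box) and TTTAAA (resembling the TATA box).
Ptgs1, plus strand, chr3:39981299-39981418: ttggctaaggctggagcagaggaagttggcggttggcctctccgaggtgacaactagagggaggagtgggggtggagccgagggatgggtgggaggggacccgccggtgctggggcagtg
Ptgs2, plus strand, chr13:64713943-64714062: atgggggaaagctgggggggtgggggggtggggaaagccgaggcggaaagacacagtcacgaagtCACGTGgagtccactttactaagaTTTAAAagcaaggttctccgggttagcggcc
Ptges, minus strand, chr3:34586988-34587107: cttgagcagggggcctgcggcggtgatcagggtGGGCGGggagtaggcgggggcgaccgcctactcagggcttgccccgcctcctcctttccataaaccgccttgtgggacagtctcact
Alox5, minus strand, chr4:151251127-151251246: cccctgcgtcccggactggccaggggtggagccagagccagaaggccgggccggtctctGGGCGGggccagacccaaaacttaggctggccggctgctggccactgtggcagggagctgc

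RefSeq had an entry for the 9 genes found, and 250 bases before each start were searched on both strands for these motifs, for TATAAA, the usual TATA box, and for the sequence CCAAT. The GC box occurred before 5 of the 9 genes (Ptgs2, Ptges, Hpgd, Ptgir and Alox5) and in 30.5% of 33469 promoters. TTTAAA began 31 bases before the start of Ptgs2 and occurred in 12.3% of promoters, and CACGTG began 55 bases before it and occurred in 5.59%. CCAAT, in 34.0% of promoters, matched the reverse strand 133 bases before the start of Ptgs2, and TATAAA, in 12.9%, matched the reverse strand 50 bases before that of Tbxas1. The printed matches do not overlap each other, and the E-box and TTTAAA read the same on both strands. The window of Ptgs1 held none of the 5 motifs. These matches describe the letters of the windows only.

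Of the cyclooxygenases, which catalyse the committed step to all prostanoids, Ptgs1 was the more abundant in every rat. Ptgs1 was 9.36, 8.70 and 9.75 FPKM in control samples 1 to 3 and 8.17, 7.53 and 9.32 in model samples 1 to 3. Model 3 lay within the control range and the other two model samples below it. The means were 9.27 ± 0.532 and 8.34 ± 0.910 (SD, n = 3 each), a difference of -0.14 on the log2(FPKM + 1) scale with a 95% interval from -0.39 to 0.11 (limma, adjusted p = 0.933). The annotated transcript ENSRNOT00000010218, of 11 exons at chr3:15560712-15582344, held 83.3% of this sum. The rest was MSTRG.22664.1, an unspliced assembled piece of 2480 bases that began 365 bases past the annotated end, and without it the difference was -0.12.

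Ptgs2, the inducible cyclooxygenase, was low and variable. Its single transcript, ENSRNOT00000003567 (10 exons, chr13:67351087-67359335), was at 0.570, 0.692 and 1.41 FPKM in control and 0.854, 0.757 and 0.369 in model samples. Control 3 was the highest of the 6 samples and model 3 the lowest, and the other 4 lay between 0.570 and 0.854. The difference was -0.17 with an interval from -0.65 to 0.30 (limma, adjusted p = 0.944), and it was 0.014 without control 3. The summed level of Ptgs1 per length was 6.91 to 16.4 times that of Ptgs2 in control and 9.57 to 25.3 times in model samples. That sum includes the unspliced piece past the annotated end of Ptgs1, so the annotated transcript alone gives lower ratios.

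Among the synthases downstream of prostaglandin H2, Ptges, which encodes the inducible microsomal prostaglandin E synthase, was the only member that met the rule of p and fold. The transcript ENSRNOT00000045993 (3 exons, chr3:9727408-9738752) was listed at 0 in control 1 and 2 and at 0.0979 FPKM in control 3. It was at 0.150, 0.186 and 0.240 FPKM in model samples 1 to 3. All 3 model samples lay above the highest control, at the lowest level of the 9 genes.

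These values correspond to 0, 0 and 6.0 estimated reads in control and 9.09, 10.3 and 13.9 in model samples. The difference was 0.21 on the log2(FPKM + 1) scale, with an interval from 0.064 to 0.35 (limma, unadjusted p = 0.0118, adjusted p = 0.933). The log2 ratio of the mean FPKM was 2.56 and its denominator was control 3 alone, so no fold is given. At such levels calls were more frequent, since 120 of the 2160 genes with a mean from 0.05 to 0.25 FPKM met the rule (5.56%). Ptges was not tested when a mean of at least 1 FPKM was required.

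Tbxas1, thromboxane A synthase, had the highest summed level of the 9 genes. It was 15.4, 14.6 and 15.2 FPKM in control and 17.3, 15.4 and 15.9 in model samples. The lowest model sample (15.45) exceeded the highest control (15.40) by a small margin. The difference was 0.097, with an interval from -0.087 to 0.28 (limma, adjusted p = 0.933).

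Most of that level was not the annotated message. Of the 7 transcripts under the name, 5 were assembled pieces within introns that together held 52.7% of the sum, 1 was an assembled form that shared a splice junction and held 21.2%, and the annotated ENSRNOT00000010796 (13 exons, chr4:66670618-66846805) held 26.1%. The annotated transcript alone was 4.15, 3.77 and 3.20 FPKM in control and 4.65, 4.30 and 4.43 in model samples. The groups did not overlap for this transcript either, with a difference of 0.22 and an interval from -0.071 to 0.51 (limma over all transcripts, adjusted p = 0.945). The groups overlapped when the annotated and the junction-sharing forms were summed, at 6.05 to 7.73 FPKM in control and 6.87 to 8.33 in model samples.

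For prostacyclin synthase, the only gene name in the table whose functional annotation included prostaglandin-I synthase activity was AABR07054614.1, at chr3:163950777-163986059 on the minus strand. It was not counted as a member, and it was chosen after its values could be seen. It was 5.80, 4.12 and 3.51 FPKM in control and 4.95, 5.66 and 6.87 in model samples. The groups overlapped, with a difference of 0.33 and an interval from -0.13 to 0.79 (limma, adjusted p = 0.933).

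This locus has a form of 10 exons, ENSRNOT00000010891, and one of 17 exons, ENSRNOT00000082474. In 5 of the 6 samples the form of 10 exons held nearly all of the level, at 5.79, 3.98 and 3.34 FPKM in control samples and 4.72 and 6.85 in model 1 and 3. In model 2 it was listed at 0 and the form of 17 exons stood at 5.66 FPKM, against 0.00887 to 0.226 in the other 5 samples. Model 2 was also 1 of the 2 samples in which Cd68 was low, although Mrc1, another macrophage marker, was highest there.

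**Figure D2:**
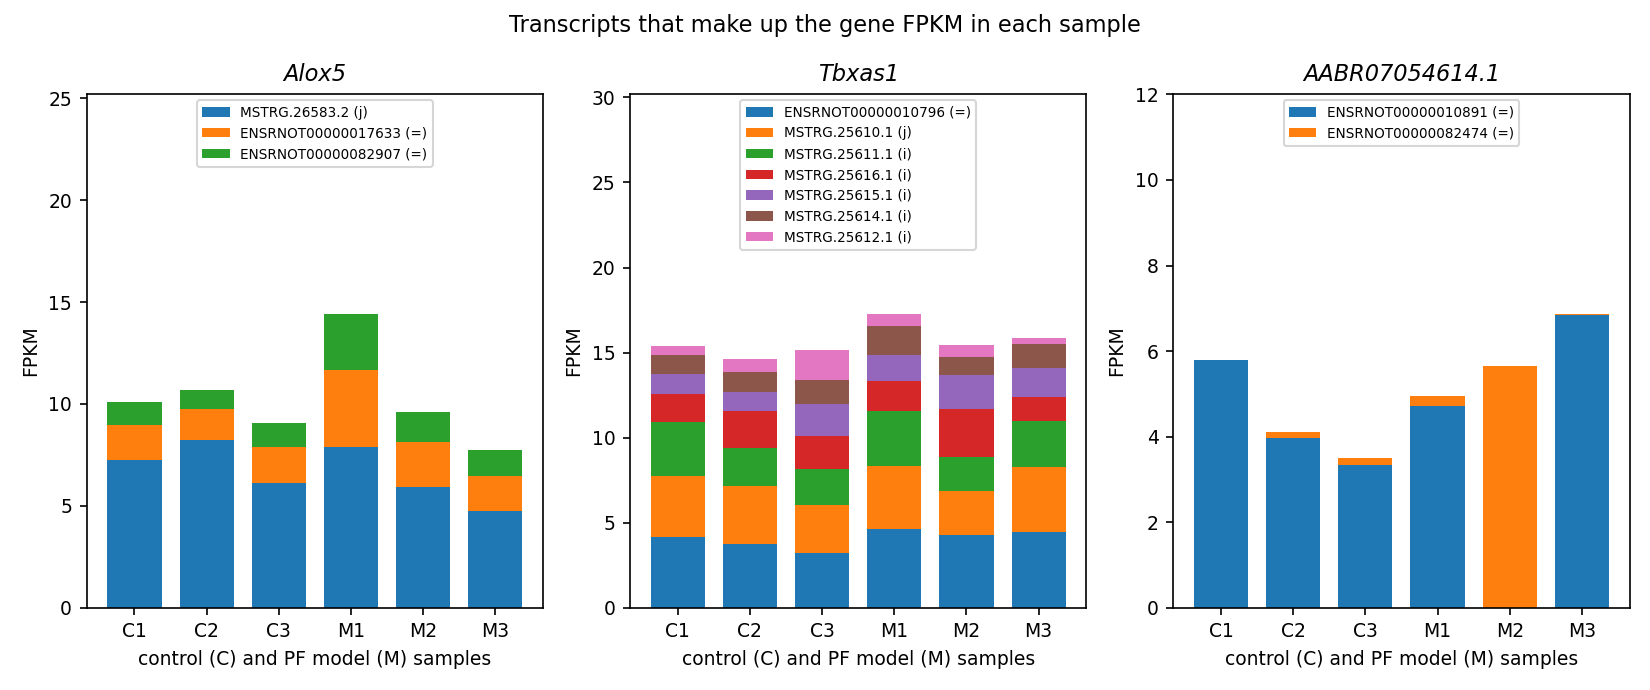
FPKM (vertical axis, starting at 0) of each transcript, stacked, in control (C1 to C3) and PF model (M1 to M3) samples for Alox5, Tbxas1 and AABR07054614.1, with class = for annotated, j for sharing a splice junction and i for lying in an intron. The assembled form of Alox5 makes up less of the bar in model samples, intronic pieces make up 52.7% of Tbxas1 over the 6 samples, and M2 carries the 17-exon form of AABR07054614.1 in place of the 10-exon form.

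Hpgd, 15-hydroxyprostaglandin dehydrogenase, starts the inactivation of prostaglandin E2 and is abundant in lung. Its transcript ENSRNOT00000014229 (7 exons, chr16:37457135-37495758) was at 14.3, 9.08 and 14.8 FPKM in control and 9.42, 12.5 and 9.35 in model samples. Control 2 was the lowest of all 6 samples, close to model 1 and 3, while model 2 stood between them and the other controls. The means were 12.7 ± 3.17 and 10.4 ± 1.77 (SD, n = 3 each). The difference of -0.25 had an interval from -0.74 to 0.24 (limma, adjusted p = 0.933), and was -0.46 without control 2.

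Of the receptors, Ptger2 encodes EP2, a receptor for prostaglandin E2 that raises cyclic AMP. ENSRNOT00000075209 (2 exons, chr15:19338175-19350210) was at 1.13, 0.903 and 1.11 FPKM in control and 1.32, 1.18 and 1.24 in model samples. All 3 model samples lay above the highest control, by a margin smaller than the spread within either group. The means were 1.050 ± 0.127 and 1.247 ± 0.0737 (SD, n = 3 each), with a difference of 0.13 and an interval from -0.10 to 0.37 (limma, adjusted p = 0.933). These levels correspond to 75.4 to 126 estimated reads per library.

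Ptger4 encodes EP4, the other receptor for prostaglandin E2 that raises cyclic AMP. Its sum was 3.23, 3.93 and 3.08 FPKM in control and 2.75, 3.35 and 2.69 in model samples. Only model 2 reached into the control range. The difference of -0.17 had an interval from -0.50 to 0.16 (limma, adjusted p = 0.933). An assembled form of 6073 bases and 4 exons, MSTRG.18943.1, held 87.3% of the sum, and the annotated form of 1473 bases and 2 exons, ENSRNOT00000017886, the other 12.7%. The group means of the EP2 and EP4 genes differed in opposite directions, and both intervals include 0.

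Ptgir encodes the prostacyclin receptor. ENSRNOT00000022461 (2 exons, chr1:78833157-78837623) was at 3.96, 3.48 and 2.99 FPKM in control and 3.28, 3.14 and 4.43 in model samples. Model 3 was the highest and the other two model samples lay within the control range. The difference was 0.039, with an interval from -0.34 to 0.42 (limma, adjusted p = 0.992), and turned to -0.083 without model 3 and to -0.041 without control 3.

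Alox5 encodes 5-lipoxygenase, the first enzyme of leukotriene synthesis and an enzyme of myeloid cells. Its sum was 10.1, 10.7 and 9.08 FPKM in control and 14.4, 9.63 and 7.76 in model samples. Model 1 was the highest and model 3 the lowest of the 6, so the model samples spanned the controls on both sides, with an SD of 3.43 against 0.810. The difference was 0.045, with an interval from -0.46 to 0.55 (limma, adjusted p = 0.993). It was -0.18 without model 1 and -0.014 without control 3.

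The sum of Alox5 was divided among 3 forms. The assembled MSTRG.26583.2 (12 exons, chr4:148399120-148437961) held 72.0%, 77.3% and 67.2% of the sum in control and 54.8%, 61.8% and 61.4% in model samples. Its share was lower in every model sample than in any control, by 12.8 percentage points (72.2 ± 5.05% against 59.3 ± 3.94%, SD, n = 3 each; two-sided exact permutation test, p = 0.1, the smallest p that 3 rats against 3 allow, and 1.0 after Benjamini-Hochberg adjustment over 11079 genes). Such a separation, with all model samples below all controls, was found for 4.31% of these 11079 genes with more than 1 transcript. The annotated forms, ENSRNOT00000017633 (14 exons, chr4:148399120-148446303) and ENSRNOT00000082907 (13 exons, chr4:148398892-148437961), together came to 2.83, 2.43 and 2.98 FPKM in control and 6.52, 3.68 and 3.00 in model samples. The lowest model sample exceeded the highest control only slightly, and the difference of 0.48 had an interval from -0.15 to 1.10 (limma on annotated transcripts alone, adjusted p = 0.972). Shares were compared for 4 genes, and the other three (Ptgs1, Tbxas1 and Ptger4) had exact permutation p values of 0.5, 0.2 and 0.3. Of the 19 transcripts, 1, that of Ptges, met the rule of p and fold against 2.98% of all 64867 transcripts tested, and 0 had an adjusted p below 0.05 (limma) against 0.0277%.

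**Figure D3:**
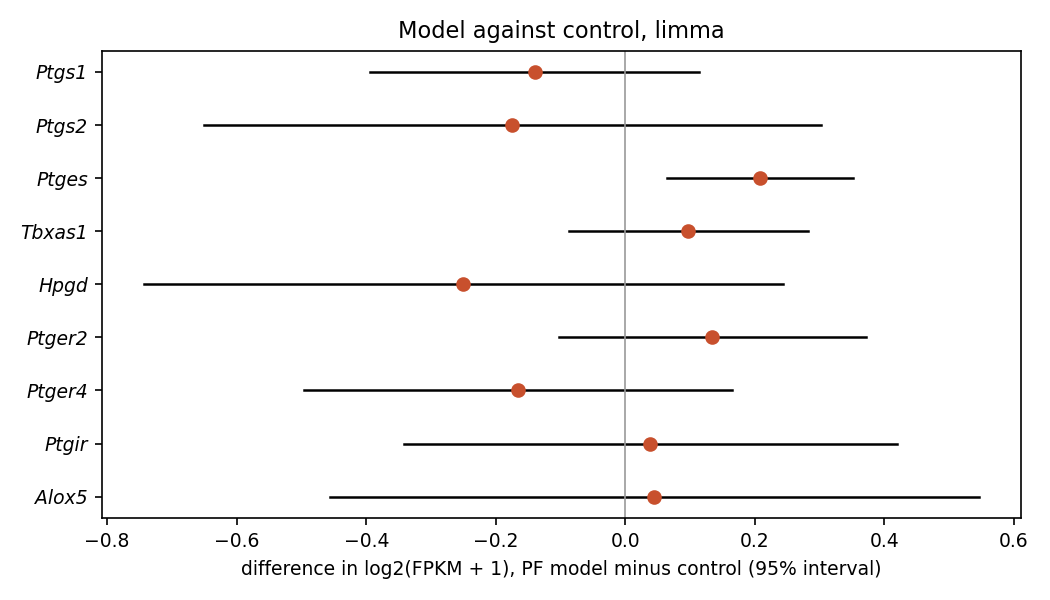
Difference in log2(FPKM + 1), PF model minus control (horizontal axis), for each of the 9 genes from the limma fit, with points for the estimate and lines for the 95% interval. The interval lies above 0 for Ptges and spans 0 for the other 8 genes.

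Ordered by level per length over all 6 samples, the 9 genes fell into 4 tiers whose ranges did not overlap. Tbxas1 (15.6 FPKM), Hpgd (11.6), Alox5 (10.3) and Ptgs1 (8.81) formed the first, and neighbours in this order overlapped in range. Ptgir (3.55) and Ptger4 (3.17) followed, then Ptger2 (1.15) and Ptgs2 (0.776), and last Ptges (0.112). With annotated transcripts alone the order changed to Hpgd (11.6), Ptgs1 (7.34), Tbxas1 (4.08), Alox5 (3.57) and Ptgir (3.55), and Ptger4 (0.404) stood below Ptgs2.

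The summed fibroblast and mast cell markers were higher in every model rat than in any control, as were Ptges, Tbxas1 and Ptger2. Those sums rested on Col3a1 and Kit, while 2 of the 5 fibroblast and 4 of the 6 mast cell markers had lower model means, and their part in the levels of the 3 genes was not tested. Without model 3 the differences were 0.18 for Ptges, 0.11 for Tbxas1 and 0.14 for Ptger2.

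The rest of the pathway was followed in a list of 66 further genes, of which 56 were in the table and 55 were tested. None met either rule (adjusted p below 0.05 or p and fold, limma), against 0.0102% and 1.52% of all genes. An unadjusted p no larger than 0.05 (limma) was reached by 1 of the 55, Gpx1, against 4.91% of all genes. The model mean was higher for 35 and lower for 20, beside 9339 higher and 10306 lower over all genes tested. The median difference was 0.060 beside -0.0072 over all genes, and whether the list departs from all genes was not tested. All model samples lay above all controls for 5 genes (Pla2g15, Cbr3, Gpx1, Lta4h and Gpr17) against 4.82% of all genes, and below for 1 (Pla2g6) against 5.87%.

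**Figure D4:**
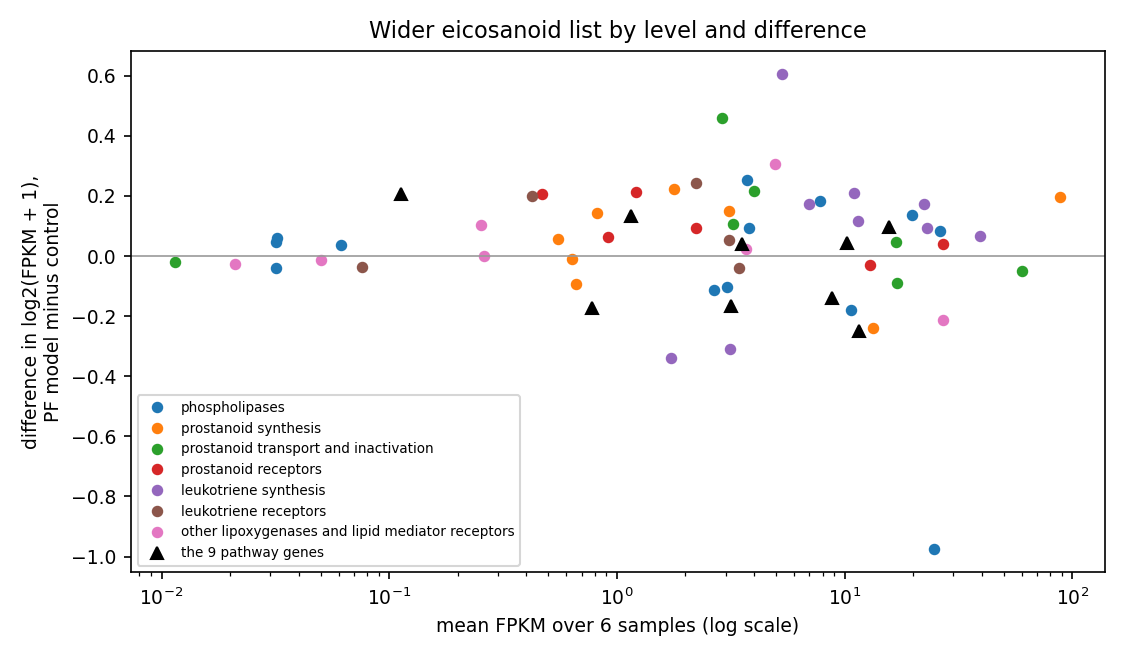
Difference in log2(FPKM + 1), PF model minus control (vertical axis), against the mean FPKM of the 6 samples (horizontal axis, log scale) for the 55 further pathway genes, coloured by role, and the 9 genes (black triangles). All but Pla2g6 lie between -0.34 and 0.60, and Pla2g6, the lowest point at -0.97, rests on 1 control sample.

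Among 13 phospholipases, which release arachidonic acid, 8 means were higher and 5 lower in the model. Pla2g1b, a secreted phospholipase, was the most abundant at 20.4 to 32.8 FPKM, with overlapping groups. Pla2g6, a calcium-independent phospholipase, was at 13.7, 83.7 and 13.4 FPKM in control and 13.1, 11.2 and 12.7 in model samples. Control 2 stood far above the others through a pair of assembled transcripts of 205 and 203 bases at 37.7 FPKM each, which overlapped an annotated exon and spanned chr7:120552726-120677639. The difference was -0.97 (limma, adjusted p = 0.933), -0.13 without control 2, and -0.12 for annotated transcripts alone. Plaa, a phospholipase activator, was at 11.4, 10.2 and 12.5 FPKM in control and 11.01, 10.3 and 8.53 in model samples.

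In prostanoid synthesis, 8 of 11 genes were in the table, with 5 means higher and 3 lower. Gpx1, a glutathione peroxidase that reduces lipid peroxides, was at 84.3, 81.4 and 82.1 FPKM in control and 97.6, 95.6 and 91.4 in model samples. The groups did not overlap, with a difference of 0.20 and an interval from 0.033 to 0.36 (limma, unadjusted p = 0.0252, adjusted p = 0.933). Ptges3, a cytosolic prostaglandin E synthase and chaperone partner, was at 14.4, 13.0 and 16.1 FPKM in control and 11.1, 13.5 and 11.7 in model samples, with only model 2 inside the control range. Its difference was -0.24, with an interval from -0.52 to 0.035 (limma, adjusted p = 0.933). It rested on 1 assembled transcript with no annotated one under the name, and Atp5f1b overlapped its span on the opposite strand.

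Of 7 genes of prostanoid transport and inactivation, 4 means were higher and 3 lower. Slco2a1, the prostaglandin transporter that feeds Hpgd, had the highest sum, 55.7 to 64.9 FPKM, and overlapped between the groups. Its annotated transcripts alone were at 6.51 to 11.3 FPKM, and the rest of the sum came from assembled pieces. Ephx1, an epoxide hydrolase, ranged from 12.7 to 22.9 FPKM on annotated transcripts and lay above Slco2a1 on that basis. Among 6 tested prostanoid receptor genes, Ptgfrn, a regulator of the prostaglandin F2 alpha receptor, was at 24.0 to 31.6 FPKM and Ptger1, which encodes EP1, at 11.5 to 14.4, both with overlapping groups. The level of Ptger1 was that of 1 assembled transcript, with no annotated transcript under the name.

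Of 9 genes of leukotriene synthesis, 7 means were higher and 2 lower. Lta4h, leukotriene A4 hydrolase, which makes leukotriene B4, was at 22.2, 20.4 and 20.3 FPKM in control and 25.4, 23.5 and 22.6 in model samples. Every model sample exceeded every control, with a difference of 0.17 and an interval from -0.015 to 0.36 (limma, adjusted p = 0.933). Ltc4s, leukotriene C4 synthase, which makes the cysteinyl leukotrienes, was at 2.03, 1.65 and 2.39 FPKM in control and 2.11, 1.37 and 0.812 in model samples. Model 1 lay within the control range, and the difference of -0.34 had an interval from -0.87 to 0.19 (limma, adjusted p = 0.933). Mgst2, a microsomal glutathione transferase that can make leukotriene C4, had the largest positive difference of the list, 0.60, with values of 7.14, 2.09 and 2.72 FPKM in control and 10.1, 2.62 and 7.18 in model samples, and its groups overlapped (limma, adjusted p = 0.933). Dpep1, a dipeptidase of cysteinyl leukotrienes, ranged from 20.5 to 27.8 FPKM, but its annotated transcripts alone from 4.63 to 7.89. Coro1a, an actin-binding protein of leukocytes, was in this list although no role in leukotriene synthesis is established for it, and ranged from 30.2 to 47.3 FPKM.

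Of 5 leukotriene receptor genes, Gpr17 was at 2.17, 1.82 and 1.86 FPKM in control and 2.56, 2.69 and 2.24 in model samples. The groups were apart, with a difference of 0.24 and an interval from -0.048 to 0.54 (limma, adjusted p = 0.933). Gpr17 lay within the span of Lims2, which is on the opposite strand. The cysteinyl leukotriene receptors Cysltr1 (3.00 to 4.01 FPKM) and Cysltr2 (1.93 to 3.80) overlapped between the groups. Of 7 genes for other lipoxygenases and lipid mediator receptors, 3 means were higher and 4 lower. Cmklr1, the chemerin receptor, ranged from 20.1 to 34.0 FPKM. Alox15, which makes 12- and 15-hydroperoxy acids, ranged from 3.11 to 7.65, with the highest value in model 1, which was also the highest sample for Alox5.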

How the data were processed

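After trimming (Cutadapt) and mapping (TopHat2 on Bowtie2, while the submitters' processing notes name HISAT2), the authors deposited, for each transcript assembled with StringTie, the FPKM from StringTie and Ballgown and the per-base coverage, a signal not scaled to library size. For circRNAs the authors deposited counts of back-splice reads (TopHat-Fusion, CIRCexplorer) and SRPBM, a signal that was not used. The genome build is not given in the sources used here, and coordinates of transcripts are those of the table. Transcript FPKM were summed per gene name, and log2(FPKM + 1) of 3 model and 3 control samples was compared with limma 3.58.1 (with trend, R 4.3.3) over genes with a value above 0 in 3 or more samples, with Benjamini-Hochberg adjustment over all of them. The pseudocount of 1 understates differences of low genes. Isoform shares were compared by two-sided exact permutation tests (scipy 1.17.1). Scripts were tested on simulated data.

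The 10 genes, the further pathway genes and the marker lists were chosen with earlier results of these data known. The text names each member, the 2 most abundant transcripts of each, the 2 most abundant further genes of each role, and the 3 further genes with the smallest p in each direction with a mean of at least 0.1 FPKM. Genes named outside this rule (those whose groups did not overlap, AABR07054614.1, Mgst2, the single marker genes, Dpep2, Ptgr2, Ltb4r and Ptgfr) were chosen after their values were seen. Alternatives covered pseudocounts, filters, scalings, transcript sums, tests, a replicate block and each sample left out.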

Additional observations from a re-analysis of the deposited data

How the results depend on the processing

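No alternative brought any of the 9 genes or the 55 further genes below an adjusted p of 0.05 (limma or the F test). Ptges met the rule of p and fold under each of the 17 alternatives in which it was tested. These alternatives reuse the same few reads, so their agreement is not independent support. Without control 3 both remaining controls were listed at 0, so there the fold condition was met by construction. In the other alternatives the control mean came from control 3 alone. With a mean of at least 1 FPKM required, 0 of the members and 0 of their transcripts met the rule of p and fold and 84 genes of the table did. The F test with a library size covariate gave 153 genes by p and fold, 0 by adjusted p and 0 member transcripts, and limma without trend also 0 member transcripts. The F test turned Ptgs2 to 0.072, Ptgir to -0.042, Alox5 to -0.099, Pla2g1b to -0.070, Ephx1 to 0.29 and MSTRG.25610.1 of Tbxas1 to -0.26. Annotated transcripts alone gave 519 genes by p and fold, 7 by adjusted p and 1 further pathway gene (Dpep2), and turned Dpep1 to -0.055 and Cysltr1 to 0.088, the latter also with junction-sharing transcripts added, an alternative chosen after seeing the data. Rescaling to TPM, which moved the median of all genes to 0.051, turned Slco2a1 to 0.038, Ptger1 to 0.055 and Cysltr1 to 0.032, and weighting by length turned Cmklr1 to 0.066. The causes of these turns were not tested.

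With each sample left out in turn, differences ranged from -0.30 to 0.014 for Ptgs2, -0.083 to 0.12 for Ptgir, -0.18 to 0.23 for Alox5, -0.095 to 0.20 for Coro1a, -0.11 to 0.039 for Ptger1, -0.17 to 0.19 for Cysltr2, -0.065 to 0.26 for Pla2g1b, -0.33 to 0.069 for Ephx1, -0.061 to 0.13 for Ptgfrn, -0.016 to 0.18 for Dpep1, -0.14 to 0.028 for Cysltr1, -0.060 to 0.16 for MSTRG.25610.1 and -1.14 to 0.35 for ENSRNOT00000010891. The table then held 1 to 4 genes by adjusted p, and 0 to 1 further pathway genes met p and fold (Ptgr2 without control 1, Ltb4r without control 3, Ptgfr without model 2).

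Same-numbered control and model samples had correlations of their deviations of 0.067, 0.028 and -0.087 over 14320 genes. Differently numbered pairs ranged from -0.14 to 0.10. With 3 samples per group, these values cannot show whether same-numbered samples share more than a number. With the replicate number as a block, 0 genes passed by adjusted p and 312 by p and fold, against 2 and 298 without it.

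At 6.0 to 13.9 estimated reads where it was above 0, Ptges was near the limit of detection, and the widest interval among the other 8 genes, that of Alox5, ran from -0.46 to 0.55. A group of 3 was too small for a check of single outlying samples.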

Other observations

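A second readout of the same libraries, circRNAs, held 0 of the 9 genes as hosts among 5216 circRNAs. In the further pathway list 6 genes hosted 14 circRNAs with 24 back-splice reads over the 6 samples. Abcc4, which encodes a transporter that exports prostaglandins, hosted 6 of them, with 2, 2 and 2 reads in control and 3, 0 and 1 in model samples (two-sided exact permutation test of the share of each library's back-splice reads, p = 0.5). The libraries held 2183 to 2667 back-splice reads in control and 2037 to 2964 in model samples, so differences in these hosts were not detectable at this depth.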
